A study of Homo sapiens with 12 samples.

Results

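The genes described here are 10 members of the splicing machinery: the kinases CLK1, CLK2, CLK3 and CLK4, and the SR splicing factors SRSF2, SRSF3, SRSF5, SRSF6, SRSF7 and TRA2A. They were taken by gene symbol from the 58735 genes of the count table, in which each symbol had its own row. The rule names genes and uses no measured value, although the list was drawn up with earlier results of these data known. All 10 had enough counts to be tested. The RNA came from TIGK, a line of human gingival keratinocytes immortalized with telomerase, and from HaCaT, a spontaneously immortalized line of human skin keratinocytes. Each line was either left in DermaLife K Keratinocyte Complete Medium (untreated) or given 5 mM H2O2 in that medium for 3 h, with 3 libraries of polyadenylated RNA in each of the 4 groups. Each cell type was therefore represented by 1 line, and the labels do not say whether replicates came from separate cultures, so p-values measure the spread between these libraries, which may be technical. In both lines the treatment label of replicates 2 and 3 writes the formula with another last digit (H2O3 and H2O4), while the treatment protocol names H2O2 for all treated samples.

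SR proteins bind exonic sequences of pre-mRNA and recruit the spliceosome to nearby splice sites, and several of them also take part in mRNA export. Their arginine- and serine-rich domains are phosphorylated in the cytoplasm by SRPK kinases and in the nucleus by the CLK kinases, and this phosphorylation sets where the proteins reside and whether they are active. Genes of both families limit their own output by alternative splicing: many SR genes can include a "poison" exon with an early stop codon that sends the mRNA to nonsense-mediated decay, and CLK1 and CLK4 transcripts are known to retain introns in a stress-dependent way. Libraries of polyadenylated RNA counted per gene do not separate these forms. In the GENCODE annotation (release 44, GRCh38), CLK1 has 14 transcripts, of which 3 are protein-coding, 2 are targets of nonsense-mediated decay and 8 retain an intron. CLK4 has 13, with 2, 3 and 7 of these types, and SRSF7 has 6 decay targets among 12 transcripts.

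The promoters of the 3 kinases whose counts fell in TIGK are printed here because the falls of these genes are described below, in each case the 250 bases before the start in RefSeq (GRCh38.p14), read 5′ to 3′ on the minus strand. CLK1 has a further start in that table, and the window before the upstream one is shown. Capitals mark TGACG or its reverse complement CGTCA, the core of the element bound by CREB and ATF factors.
CLK4, chr5:178627051-178627300: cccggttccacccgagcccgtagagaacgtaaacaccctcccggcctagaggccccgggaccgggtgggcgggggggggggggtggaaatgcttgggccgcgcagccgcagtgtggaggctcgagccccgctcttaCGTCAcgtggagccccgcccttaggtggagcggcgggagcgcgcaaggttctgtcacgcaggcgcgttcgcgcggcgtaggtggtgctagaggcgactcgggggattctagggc
CLK1, chr2:200864659-200864908: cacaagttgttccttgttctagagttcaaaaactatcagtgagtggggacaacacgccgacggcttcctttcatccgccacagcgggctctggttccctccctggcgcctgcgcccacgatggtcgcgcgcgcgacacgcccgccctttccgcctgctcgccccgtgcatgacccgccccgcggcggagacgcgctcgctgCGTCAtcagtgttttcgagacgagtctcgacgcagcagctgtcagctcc
CLK2, chr1:155273505-155273754: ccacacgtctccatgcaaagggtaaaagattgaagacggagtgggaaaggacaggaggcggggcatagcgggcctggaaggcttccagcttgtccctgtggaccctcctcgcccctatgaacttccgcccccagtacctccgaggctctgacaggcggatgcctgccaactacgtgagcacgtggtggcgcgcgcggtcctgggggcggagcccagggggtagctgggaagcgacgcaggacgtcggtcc

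CLK4 has the motif at position -114 from its start, CLK1 has it at -49 from the start shown and at -146 from its other start, and these letters are not in the CLK2 window. Promoters of 8 of the 10 members, all but SRSF2 and TRA2A, were matched in the RefSeq table. The 250 bases before a start held TGACG on either strand in 6 of the 8 (CLK1, CLK3, CLK4, SRSF3, SRSF5 and SRSF7), against 24.9% of all gene symbols in the table. The whole palindrome TGACGTCA was in 0 of the 8 and in 2.03% of all symbols. The letters CCATTTTG, which hold the CCAT core of YY1 sites, were found on either strand in 3 of the 8 within 250 bases before to 50 after a start, against 1.96% of all symbols. The ETS-type letters CCGGAAG were found in 2 of the 8 (CLK3 and SRSF5) and in 12.2% of all symbols over the same length. The surroundings of CCATTTTG (capitals) are printed to show where it lies: at position -2 from the start of CLK1 shown above and -99 from its other start, at 14 in CLK4 and at -32 in SRSF5.
CLK1, minus strand, chr2:200864644-200864669: ctgtcagctCCATTTTGttgttggtg
CLK4, minus strand, chr5:178627021-178627046: gcgctgccgCCATTTTGtggggtgtt
SRSF5, plus strand, chr14:69767101-69767126: acgcgccctCCATTTTGtggagcgcc

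A match of letters is a description of the sequence only. The plan of the analysis named no motif, so the letters may have been picked after these promoters were seen. The shares above are therefore no test of enrichment. The 250-base windows of the members held 54.8% to 78.0% G and C, beside a median of 58.0% over all 35116 RefSeq promoters. Of the 3 genes with CCATTTTG, CLK4 fell in both lines and CLK1 in TIGK, and SRSF5 passed the limit in neither. A link between these letters and the responses was not tested.

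Counts were scaled to a common library size (normalized counts, by edgeR's TMM method), and edgeR's quasi-likelihood test was run on the 16618 genes that averaged at least 10 raw counts over the libraries. A gene was called higher or lower at a Benjamini-Hochberg adjusted p under 0.01 over all these genes. Library totals ranged from 30426401 to 49034244 counts, and no pair of replicates was as alike as sampling noise alone would make it. The chi-square per degree of freedom between replicates ran from 4.57 to 30.3. It was highest for treated HaCaT 3 against treated HaCaT 1 (30.3) and 2 (20.5). Untreated TIGK 3 against untreated TIGK 1 (15.8) and 2 (12.3) came next. All 8 keratinocyte markers checked were present in every group, with summed normalized counts of 1100310 to 1383340. Of 7 fibroblast markers, 1 in HaCaT and 3 to 4 in TIGK had a mean over 10, with sums of 311 to 418 and 804 to 938. Melanocyte, immune and endothelial markers summed to at most 124 in any library. The part of these counts in the differences between the lines was not tested. The share of counts from the mitochondrial chromosome was 3.33% to 3.45% in untreated and 1.39% to 1.5% in treated TIGK, and 6.10% to 6.26% in untreated and 3.30% to 3.51% in treated HaCaT. Since this share moved with treatment and line, all values were also computed without that chromosome.

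**Figure D1:**
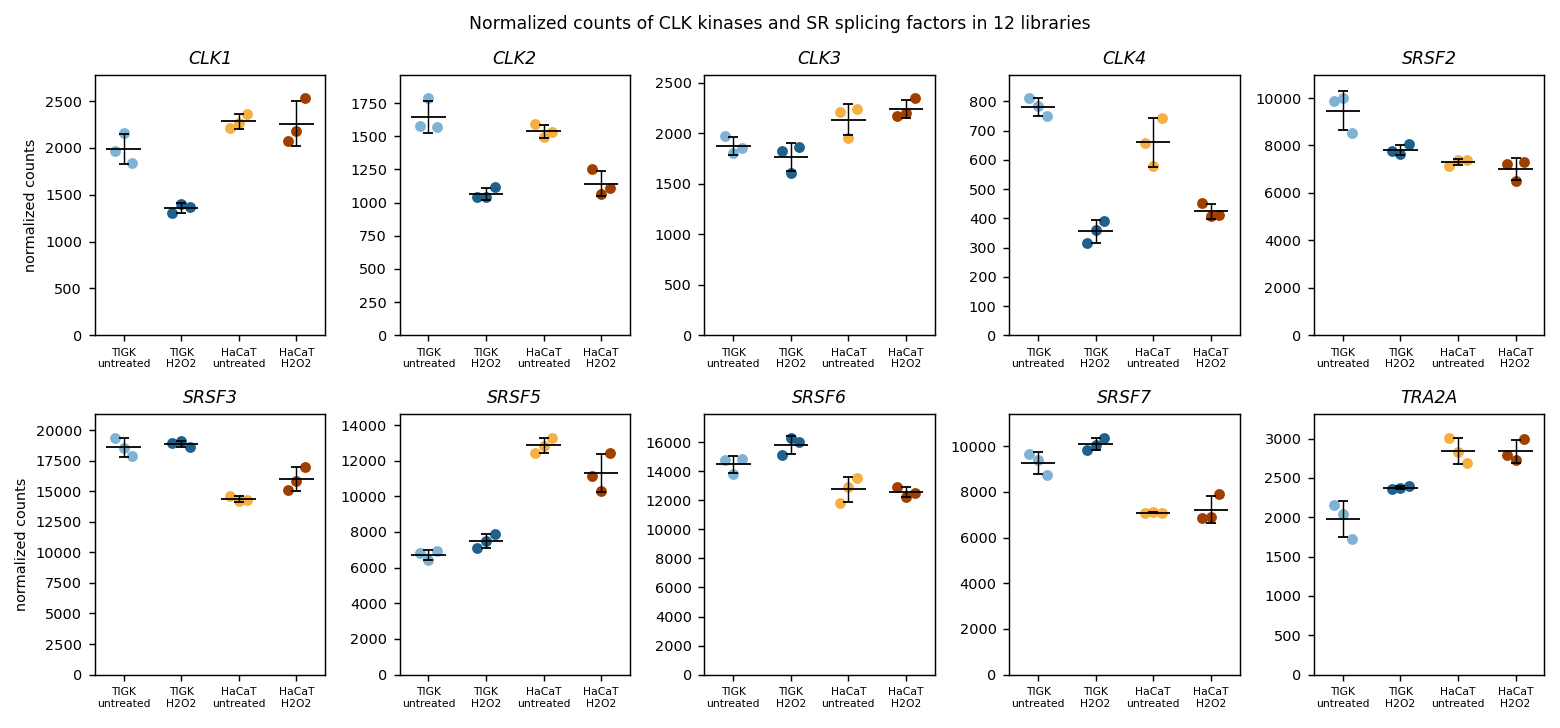
Normalized counts (y axis, from 0) of the 10 genes in each group (x axis). Points are libraries, horizontal lines are group means and bars are 1 SD (n = 3). The 3 treated TIGK libraries lay below the 3 untreated ones for CLK1, CLK2, CLK4 and SRSF2. They lay above them for SRSF5, SRSF6, SRSF7 and TRA2A. In HaCaT the treated libraries lay below the untreated ones for CLK2 and CLK4 and above them for SRSF3. The share of all genes tested that separate in this way was not computed, so separation alone is not read as a response. SRSF5, SRSF6 and SRSF7 in TIGK and SRSF3 in HaCaT separated without passing the limit on the adjusted p.

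The response to H2O2 was first followed in the CLK kinases. In TIGK, CLK4, CLK2 and CLK1 fell, and in HaCaT CLK4 and CLK2 fell. CLK3 passed the limit in neither line, and no CLK gene rose. The largest change was that of CLK4 in TIGK, which fell by 54.4%.

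CLK4, a nuclear kinase of SR proteins, had 811, 784 and 750 normalized counts in the untreated TIGK libraries and 314, 359 and 392 in the treated ones. In HaCaT it had 658, 578 and 745 untreated and 452, 407 and 411 treated. In both lines every treated library lay below every untreated one. The log2 fold change was -1.13 ± 0.108 (SE; edgeR adjusted p = 2.17e-07) in TIGK and -0.64 ± 0.108 (edgeR adjusted p = 0.000102) in HaCaT, a fall by 35.9%. Because each library pools many cells, fewer cells that express a gene and less of its RNA per cell cannot be told apart. Counts are also relative to each library, so a change in total RNA per cell is not seen. Without the mitochondrial chromosome the values were -1.12 in TIGK and -0.68 in HaCaT.

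CLK2, a kinase that besides splicing factors phosphorylates components of metabolic signalling, had 1578, 1787 and 1571 normalized counts in untreated TIGK and 1039, 1040 and 1117 after H2O2. In HaCaT the counts were 1589, 1492 and 1531 untreated and 1253, 1065 and 1114 treated. The groups did not overlap in either line. CLK2 fell by 35.2% in TIGK (log2 fold change -0.63 ± 0.0762, edgeR adjusted p = 4.22e-06) and fell by 25.6% in HaCaT (-0.43 ± 0.0763, edgeR adjusted p = 0.000182). A CLK2 pseudogene in the table had a mean of 8.33 counts, and it was counted separately.

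CLK1, the best-studied kinase of the family, had 1970, 2163 and 1842 normalized counts in untreated TIGK and 1305, 1406 and 1371 in treated TIGK. In HaCaT it had 2218, 2265 and 2367 untreated and 2070, 2182 and 2530 treated. The treated TIGK libraries were the lowest of all 12, whereas the treated and untreated HaCaT libraries overlapped. CLK1 fell by 31.7% in TIGK (log2 fold change -0.55 ± 0.0771, edgeR adjusted p = 2.11e-05). In HaCaT its log2 fold change was -0.01 ± 0.0756, with a 95% interval from -0.17 to 0.15.

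CLK3, a CLK kinase abundant in testis, had 1609 to 1975 normalized counts in the 6 TIGK libraries and 1956 to 2348 in the 6 HaCaT libraries. Treated and untreated libraries overlapped in both lines. Its log2 fold change was -0.09 in TIGK (95% interval -0.24 to 0.06) and 0.07 in HaCaT (95% interval -0.08 to 0.22). Exons of CLK3 share 3.56% of their bases with the opposite strand of EDC3, which had a mean of 2150 counts. The sources used here do not state whether strand was used in the counting.

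**Figure D2:**
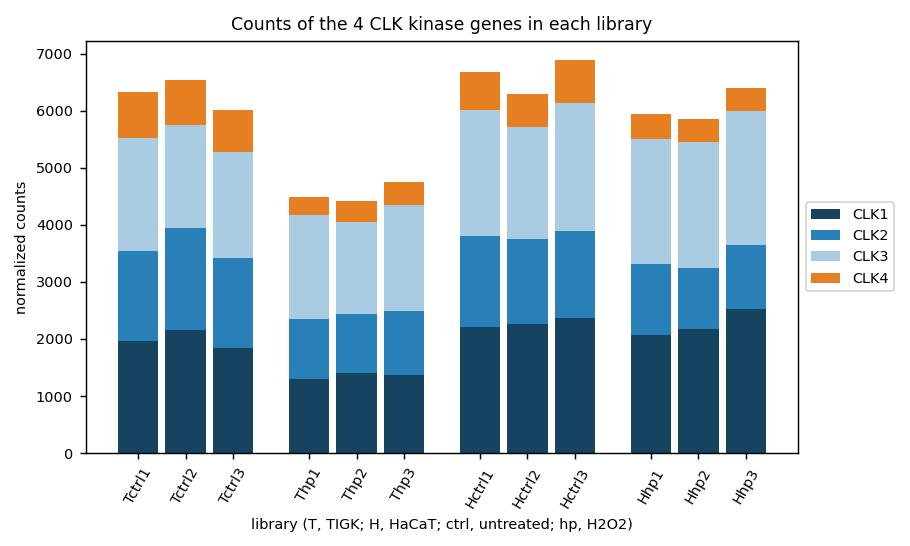
Stacked normalized counts (y axis, from 0) of CLK1 to CLK4 in each of the 12 libraries (x axis). The 3 treated TIGK libraries reached 4413 to 4748, below the 5858 to 6885 of the other 9.

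Summed over the 4 kinase genes, normalized counts were 6297 ± 260 (SD, n = 3) in untreated TIGK and 4549 ± 176 in treated TIGK. In HaCaT the sums were 6616 ± 301 and 6071 ± 292. The sum in each treated TIGK library was lower than in any other library, while in HaCaT the highest treated sum (6403) exceeded the lowest untreated one (6291). The share of CLK4 in these counts was 12.4% ± 0.403 in untreated and 7.80% ± 0.686 in treated TIGK, and 9.95% ± 0.817 and 6.99% ± 0.587 in HaCaT. The share of CLK3 in TIGK was 29.9% ± 2.00 before and 38.8% ± 2.19 after treatment, with its own counts overlapping between the groups.

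Among the SR splicing factors, SRSF2 fell and TRA2A rose in TIGK, and in HaCaT none of the 6 passed the limit. The log2 fold changes of the 6 lay between -0.28 and 0.27 in TIGK and between -0.18 and 0.15 in HaCaT.

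SRSF2 (SC35), a nuclear SR protein used as a marker of nuclear speckles, had 9866, 9991 and 8516 normalized counts in untreated TIGK and 7760, 7639 and 8044 after H2O2. The groups did not overlap. SRSF2 fell by 17.4% (log2 fold change -0.28 ± 0.0628, edgeR adjusted p = 0.0022). In HaCaT it had 7147 to 7408 untreated and 6484 to 7317 treated, and its log2 fold change was -0.06 (95% interval -0.19 to 0.07). The call in TIGK was lost when untreated TIGK replicate 1 or 2 or any of the 3 treated TIGK libraries was left out, with log2 fold changes of -0.27 to -0.21 and edgeR adjusted p from 0.0113 to 0.0333. SRSF2 shares 27.7% of its exon bases with MFSD11 on the opposite strand, a gene with a mean of 503 counts, which is a small part of the SRSF2 counts.

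TRA2A, an SR-like activator of splicing that binds GAA-rich enhancers, had 2159, 2044 and 1723 normalized counts in untreated TIGK and 2353, 2374 and 2394 after H2O2. All treated libraries lay above the untreated ones, and the untreated replicate 3 lay lowest. TRA2A rose by a log2 fold change of 0.26 ± 0.0738 (edgeR adjusted p = 0.00904), close to the limit. The call was lost when any of 9 libraries was left out: untreated HaCaT 1, 2 or 3, treated HaCaT 2, untreated TIGK 2 or 3, or treated TIGK 1, 2 or 3. The edgeR adjusted p was then 0.0105 to 0.0596, the latter without untreated TIGK 3, where the log2 fold change was 0.175. In HaCaT it had 2689 to 3013 untreated and 2721 to 2994 treated, which overlapped, and its log2 fold change was -0.00 (95% interval -0.16 to 0.15; 0.01 with library totals as the only scaling).

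SRSF5, an SR protein also known as SRp40, had 6799, 6414 and 6943 normalized counts in untreated TIGK and 7116, 7514 and 7906 in treated TIGK. In HaCaT it had 12427, 12838 and 13298 untreated and 11165, 10311 and 12444 treated. Its log2 fold change was 0.16 ± 0.0649 in TIGK (edgeR adjusted p = 0.0596) and -0.18 ± 0.0644 in HaCaT (edgeR adjusted p = 0.0245). Neither passed the limit, although the 3 treated TIGK libraries lay above the untreated ones. Without the filter on low counts it passed in both lines, in opposite directions (0.19 in TIGK, edgeR adjusted p = 0.00939, and -0.21 in HaCaT, edgeR adjusted p = 0.00339). Without treated HaCaT 3, the highest of its group, the value in HaCaT was -0.26 with an edgeR adjusted p of 0.00148.

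SRSF3, the smallest SR protein, also takes part in mRNA export and had 17865 to 19406 normalized counts in untreated TIGK and 18622 to 19106 in treated TIGK. In HaCaT it had 14246 to 14655 untreated and 15106 to 17020 treated. Here the HaCaT groups did not overlap, yet its change of 0.15 ± 0.0530 on the log2 scale missed the limit (edgeR adjusted p = 0.0242). With library totals as the only scaling SRSF3 passed the limit (edgeR adjusted p = 0.00872), which would give 1 higher and 2 lower members in HaCaT. In TIGK the 95% interval was -0.09 to 0.13.

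SRSF6 and SRSF7, both regulators of alternative exons, passed the limit in neither line. SRSF6 had 13809 to 14855 normalized counts in untreated and 15126 to 16336 in treated TIGK, with no overlap. Its log2 fold change was 0.13 (edgeR adjusted p = 0.0852). SRSF7 had 8755 to 9680 in untreated and 9858 to 10383 in treated TIGK, likewise with no overlap. Its log2 fold change was 0.12 (edgeR adjusted p = 0.113). In HaCaT both genes overlapped between the groups, with log2 fold changes of -0.02 for SRSF6 and 0.02 for SRSF7. The latter had the opposite sign without the mitochondrial chromosome.

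**Figure D3:**
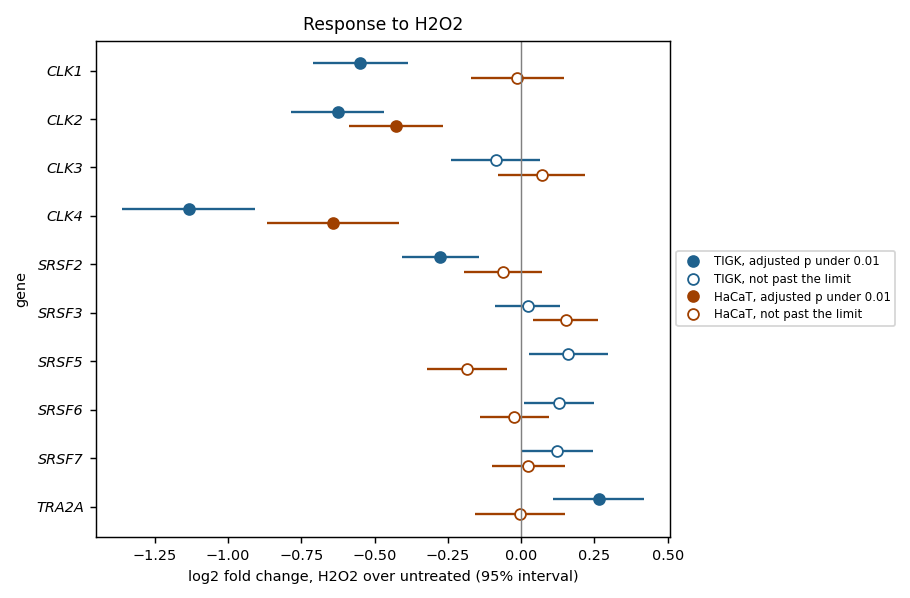
Log2 fold change after H2O2 over untreated (x axis) of the 10 genes (y axis) in TIGK and HaCaT, with 95% intervals as bars (n = 3 libraries a group). Filled points are past the limit of an edgeR adjusted p of 0.01. CLK4 lies farthest from 0 in both lines, and the intervals of the lines do not overlap for CLK1, CLK4 and SRSF5.

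Counted together, 1 of the 10 genes was higher and 4 were lower after H2O2 in TIGK, where 10.2% of all genes tested were higher and 12.9% lower. In HaCaT 0 were higher and 2 were lower, against 18.9% higher and 15.2% lower over all genes. The median log2 fold change of the 10 was -0.03 in TIGK and -0.02 in HaCaT, beside 0.01 and 0.04 over all genes tested. Separated by role, the 4 kinases had medians of -0.59 and -0.22, and the 6 SR factors 0.125 and -0.01.

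The difference between the responses of the lines was tested directly, as the response of TIGK minus that of HaCaT. CLK1 passed the limit, with a difference of -0.54 ± 0.108 on the log2 scale (edgeR adjusted p = 0.00311). It was the only member of the 10 to do so, against 2.32% of all genes with a higher and 2.98% with a lower response in TIGK. Without the mitochondrial chromosome the counts over all genes turned to 522 higher and 346 lower, from 385 and 496, and the difference of CLK1 was -0.49 (edgeR adjusted p = 0.00704). The counts over all genes also moved by over 1.5 times when 1 library was left out. The lower responses numbered 184 without treated TIGK 2, 192 without treated TIGK 3, 224 without untreated TIGK 2, 287 and 299 without untreated HaCaT 1 and 2, and 317 without treated HaCaT 2, and the higher ones numbered 698 without treated HaCaT 1. The call of CLK1 was lost without untreated HaCaT 1 or 2, untreated TIGK 2, or treated TIGK 1, 2 or 3, with differences of -0.53 to -0.41 and edgeR adjusted p from 0.0107 to 0.0308.

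CLK4 differed by -0.49 ± 0.152 (95% interval -0.81 to -0.17, edgeR adjusted p = 0.0422) and SRSF5 by 0.35 ± 0.0914 (95% interval 0.15 to 0.54, edgeR adjusted p = 0.018). Neither passed the limit, but SRSF5 did so with DESeq2 (adjusted p = 0.00315), without the filter on low counts (edgeR adjusted p = 0.000133) and without treated HaCaT 3 (edgeR adjusted p = 0.00112). The 95% intervals were -0.42 to 0.03 for CLK2, -0.40 to -0.03 for SRSF2 and 0.05 to 0.49 for TRA2A, none with an adjusted p under 0.1. For CLK2 the fall was thus seen in both lines, and a difference between the falls was not detected.

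Before treatment all 6 SR factors differed between the lines past the limit, and none of the 4 kinases did. SRSF5 and TRA2A were higher in HaCaT, and SRSF2, SRSF3, SRSF6 and SRSF7 were higher in TIGK. Thus 2 members were higher and 4 lower in HaCaT, where 29.1% of all genes tested were higher and 30.8% lower. This share of calls is near that over all genes.

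SRSF5 had 12427 to 13298 normalized counts in untreated HaCaT and 6414 to 6943 in untreated TIGK, an excess in HaCaT of 0.94 ± 0.0651 on the log2 scale (edgeR adjusted p = 2.03e-10). TRA2A had 2689 to 3013 in HaCaT and 1723 to 2159 in TIGK, a log2 fold change of 0.53 ± 0.0736 (edgeR adjusted p = 3.36e-06). Of the genes lower in HaCaT, SRSF7 had a log2 fold change of -0.39, SRSF2 of -0.37 and SRSF3 of -0.37, and for all 3 the libraries of the lines did not overlap. The change of SRSF6 was smaller (-0.18 ± 0.0568, edgeR adjusted p = 0.00821). Its call was lost without any of 8 libraries: untreated HaCaT 1 or 2, treated HaCaT 1, untreated TIGK 1, 2 or 3, or treated TIGK 2 or 3. The values then lay between -0.20 and -0.13, with edgeR adjusted p from 0.0102 to 0.0764.

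Among the kinases the untreated lines differed by log2 fold changes of 0.20 for CLK1 (edgeR adjusted p = 0.0277), 0.19 for CLK3 (0.0273), -0.24 for CLK4 (0.0466) and -0.10 for CLK2 (0.261). CLK1 passed the limit without treated HaCaT 1 or 3 (edgeR adjusted p = 0.00999982 and 0.00802) or untreated TIGK 2 (0.00903) and without the filter on low counts (0.00832), and CLK3 without untreated HaCaT 2 (0.00844).

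After H2O2 the kinases CLK1 and CLK3 were also higher in HaCaT than in TIGK. CLK1 had 2070 to 2530 normalized counts in treated HaCaT and 1305 to 1406 in treated TIGK, a log2 fold change of 0.73 ± 0.0771 (edgeR adjusted p = 7.85e-08). CLK3 had 2176 to 2348 and 1609 to 1868, a log2 fold change of 0.34 ± 0.0717 (edgeR adjusted p = 0.00031). Without treated TIGK 2, the lowest library, CLK3 no longer passed (0.23, edgeR adjusted p = 0.0138). CLK4 and CLK2 did not pass, with 95% intervals of 0.02 to 0.48 and -0.06 to 0.26.

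SRSF5 remained higher in HaCaT after H2O2, at 10311 to 12444 normalized counts against 7116 to 7906 in TIGK (log2 fold change 0.59, edgeR adjusted p = 1.44e-07). SRSF7 (-0.485), SRSF6 (-0.33) and SRSF3 (-0.24) were lower in HaCaT. SRSF2 was at -0.16 (edgeR adjusted p = 0.0325) and passed the limit with DESeq2, with library totals as the only scaling, without the mitochondrial chromosome, without the filter, and without untreated TIGK 2 (-0.21, edgeR adjusted p = 0.00926). TRA2A was higher in HaCaT (0.26, edgeR adjusted p = 0.00438). That call was lost with other scalings, and without treated HaCaT 1 or 3, untreated TIGK 2, or treated TIGK 1, 2 or 3 (edgeR adjusted p 0.0154 to 0.0456).

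Altogether 4 members were higher and 3 lower in HaCaT after H2O2, beside 30.2% and 29.8% of all genes tested. With library totals as the only scaling, or without the mitochondrial chromosome, 3 were higher and 4 lower. The comparisons share libraries: the untreated TIGK and treated TIGK groups enter both the response of TIGK and the comparisons of the lines.

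**Figure D4:**
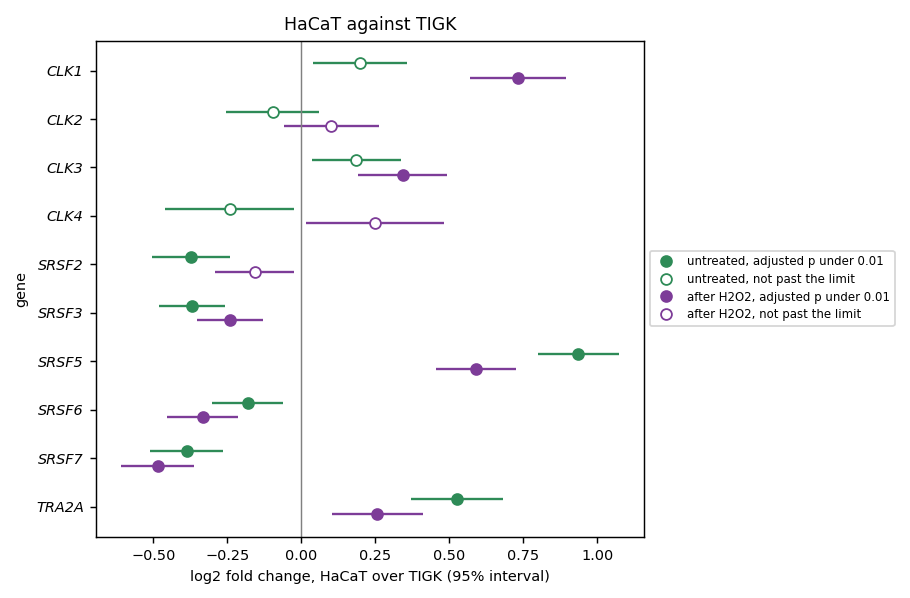
Log2 fold change of HaCaT over TIGK (x axis) of the 10 genes (y axis), untreated and after H2O2, with 95% intervals as bars (n = 3 libraries a group). Filled points are past the limit of an edgeR adjusted p of 0.01. In both conditions the intervals of SRSF5, TRA2A, CLK1 and CLK3 lie right of 0. Those of SRSF2, SRSF3, SRSF6 and SRSF7 lie left of 0 in both.

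Levels can be compared between genes only per length, so RPKM values were computed from the normalized library sizes and the gene length in the table. SRSF6 had the highest level in every group, from 75.4 RPKM in treated HaCaT to 94.98 in treated TIGK, although in untreated TIGK its range (82.9 to 89.1) overlapped that of SRSF2 (77.8 to 91.3). In untreated TIGK the order of levels then ran SRSF3 (72.0), SRSF7 (63.2), SRSF5 (34.6), TRA2A (15.5), CLK2 (12.4), CLK1 (10.6), CLK4 (2.72) and CLK3 (2.53), in RPKM. Of these neighbours only CLK4 and CLK3 overlapped.

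In untreated HaCaT, SRSF5 stood at 66.1 ± 2.24 RPKM (SD, n = 3), and its range overlapped that of SRSF2 at 66.8 ± 1.28. SRSF3 followed at 55.7, SRSF7 at 48.3 and TRA2A at 22.3 RPKM. Below them the ranges of CLK1 (12.2) and CLK2 (11.5) overlapped, and CLK3 (2.88) and CLK4 (2.30) were lowest. After H2O2, CLK4 was lowest in both lines, at 1.24 ± 0.135 RPKM in TIGK and 1.47 ± 0.0862 in HaCaT. The length given for CLK3, 20443 bases, sums the exons of all its gene models and lowers its level per length compared with genes such as SRSF2 (3017 bases).

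Beyond the members, 5 lists of genes of the same pathway were examined. They are reported by their counts and medians, to be read against the 10.2% higher and 12.9% lower of all genes in TIGK and the 18.9% and 15.2% in HaCaT.

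Of 8 other SR protein genes, 4 were higher and 0 lower after H2O2 in TIGK (median log2 fold change 0.19), and 2 were higher and 0 lower in HaCaT (median 0.08, or 0.09 over the 7 other than SRSF12, which had a count of 0 in all HaCaT libraries). TRA2B, the paralog of TRA2A, rose in both lines. It had 9305 ± 179 normalized counts (SD, n = 3) in untreated and 12416.5 ± 70.4 in treated TIGK, and 8506 ± 258 and 10756 ± 243 in HaCaT. The log2 fold changes were 0.42 ± 0.0474 (edgeR adjusted p = 1.93e-06) and 0.34 ± 0.0475 (edgeR adjusted p = 1.6e-05). TRA2A itself had values of 0.26 and -0.00 in these comparisons.

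Among 13 other SR protein kinases, phosphatases and the nuclear importer of SR proteins, of which 12 were tested, 0 were higher and 3 lower in TIGK, and 2 were higher and 3 lower in HaCaT. DYRK2, a kinase of the DYRK family related to the CLKs, fell in both lines, by log2 fold changes of -0.54 ± 0.0785 in TIGK (edgeR adjusted p = 2.95e-05) and -0.54 ± 0.0786 in HaCaT (edgeR adjusted p = 2.3e-05). The largest rise in HaCaT was that of PPP1CA, a catalytic subunit of protein phosphatase 1, at 0.32 ± 0.0595 (edgeR adjusted p = 0.000271). SRPK2, which phosphorylates SR proteins in the cytoplasm, was picked after its values were seen because it alone in this list differed between the responses. It had 3920 ± 109 normalized counts in untreated and 4156 ± 152 in treated TIGK, and 3332 ± 126 and 2703 ± 110 in HaCaT.

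Of 25 SR-related splicing factors, 4 were higher and 5 lower in TIGK, and 3 were higher and 8 lower in HaCaT. CCNL1, a cyclin that partners with the CDK11 kinases in splicing, had the largest rise of the list in both lines. Its normalized counts were 3056 ± 85.6 in untreated and 6440 ± 314 in treated TIGK, and 4560 ± 107 and 7834 ± 372 in HaCaT. These are log2 fold changes of 1.08 ± 0.0547 (edgeR adjusted p = 3e-11) and 0.78 ± 0.0539 (edgeR adjusted p = 2.67e-09). The paralog CCNL2, named after its values were seen, fell, by log2 fold changes of -0.41 in TIGK and -0.44 in HaCaT (edgeR adjusted p = 0.000278 and 9.6e-05). The largest falls were those of RBM25 in TIGK (-0.52 ± 0.0549, edgeR adjusted p = 7.98e-07) and SRRM2, a large scaffold protein of nuclear speckles, in HaCaT (-0.79 ± 0.0860, edgeR adjusted p = 9.12e-07). U2AF1, which has a near-identical copy in GRCh38 and is therefore uncertain, ranged from 80 to 1691 raw counts among the treated HaCaT libraries, and its values of -1.25 in TIGK and 0.63 in HaCaT passed no limit.

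Of 21 hnRNP protein genes, which often oppose SR proteins at exons, 2 were higher and 2 lower in TIGK, and 2 were higher and 1 lower in HaCaT. In TIGK HNRNPH2 had the largest rise (0.30, edgeR adjusted p = 0.00159) and HNRNPH1 the largest fall (-0.27, edgeR adjusted p = 0.00183). The call of HNRNPH2 was lost without untreated TIGK 3 (edgeR adjusted p = 0.0106) and that of HNRNPH1 without untreated TIGK 2 (0.0138) or treated TIGK 2 (0.0325). In HaCaT HNRNPA1 rose by 0.25 (edgeR adjusted p = 0.00057; 0.0101 with the groups compared alone, past no limit), and SYNCRIP had the largest fall (-0.17, edgeR adjusted p = 0.00848). SYNCRIP no longer passed without untreated HaCaT 1, 2 or 3, treated HaCaT 2, untreated TIGK 1 or treated TIGK 1 (edgeR adjusted p 0.0112 to 0.0406), nor with library totals as the only scaling (0.0144) or the groups compared alone (0.0133).

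Of 15 genes of nonsense-mediated decay and the exon junction complex, 4 were higher and 2 lower in TIGK, and 3 were higher and 6 lower in HaCaT. SMG1, the kinase that phosphorylates UPF1 in this pathway, fell in both lines. It had 11601 ± 2174 normalized counts in untreated and 6554 ± 123 in treated TIGK, and 13558 ± 793 and 6077 ± 872 in HaCaT, with log2 fold changes of -0.82 ± 0.105 (edgeR adjusted p = 7.37e-06) and -1.16 ± 0.106 (edgeR adjusted p = 1.02e-07). SMG1 has many pseudogene copies in the genome, so its count is uncertain. The largest rises were those of SMG9, a regulator of SMG1, in TIGK (0.37, edgeR adjusted p = 0.000688) and of MAGOHB, an exon junction protein, in HaCaT (0.36, edgeR adjusted p = 0.00745). The call of MAGOHB was lost without untreated HaCaT 1 or 2, treated HaCaT 2 or 3, untreated TIGK 2, or treated TIGK 2 or 3 (edgeR adjusted p 0.0102 to 0.0496), and also without the mitochondrial chromosome (0.0169) and with the groups compared alone (0.0191).

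**Figure D5:**
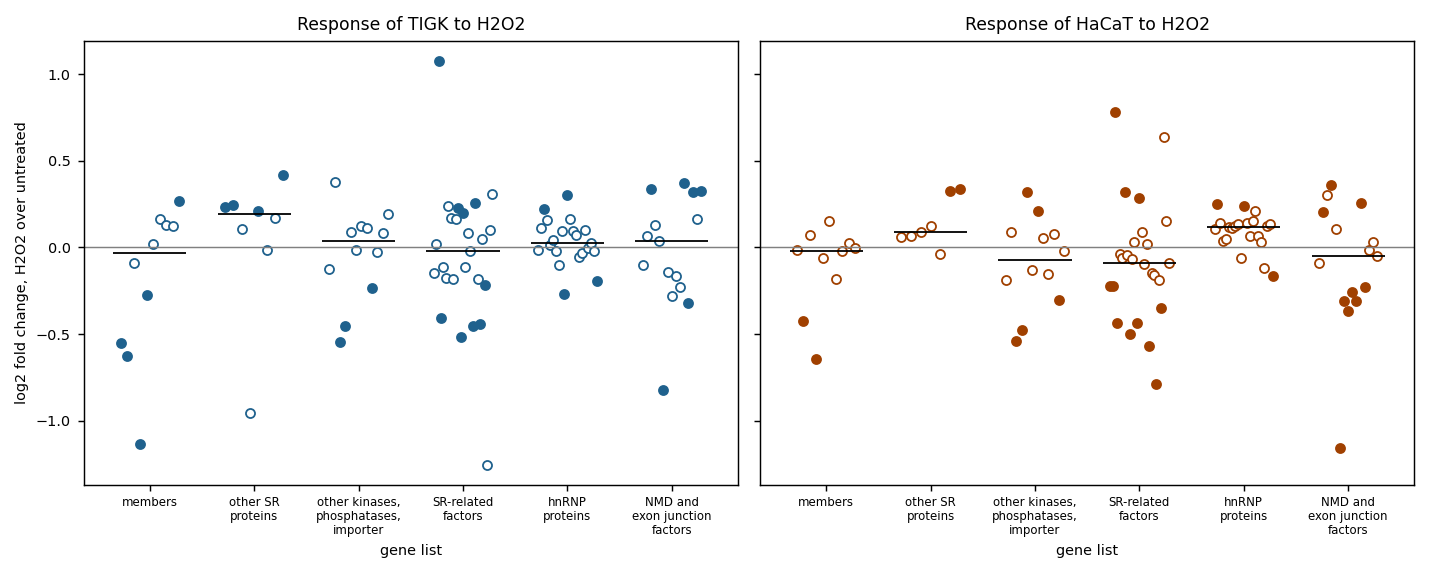
Log2 fold change after H2O2 over untreated (y axis) of each gene of the 10 members and of 5 pathway lists (x axis), in TIGK on the left and HaCaT on the right. Filled points are past the limit of an edgeR adjusted p of 0.01 and lines are list medians; CCNL1 is the highest point in both panels, and the lowest point is U2AF1 (-1.25, open) in TIGK and SMG1 in HaCaT. SRSF12 is left out of the HaCaT panel.

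The genes whose levels most resembled those of CLK1 and SRSF3 across the 12 libraries were sought among 11763 genes with a mean of at least 100 normalized counts, as a description in which all points share their libraries and the 4 groups. For CLK1 the highest Pearson r of log2 CPM were those of NAMPT (0.971), EFHD2 (0.960), SLC35G1 (0.957), SDR39U1 (0.9496) and PDLIM4 (0.946). NAMPT, an enzyme of NAD synthesis, had mean normalized counts of 5112 in untreated TIGK, 3817 in treated TIGK, 6117 in untreated HaCaT and 5771 in treated HaCaT. For SRSF3 they were ERGIC3 (0.995), HDAC2 (0.993), CCT5 (0.990), HNRNPC (0.989) and CDC37 (0.988). HDAC2, a histone deacetylase, had 8926 and 9037 mean normalized counts in untreated and treated TIGK and 6032 and 7022 in HaCaT.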

How the data were processed

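Polyadenylated RNA of 12 libraries (3 per group) was sequenced as paired reads. In the table the authors deposited, each gene of GRCh38 has its raw read count in each library and a gene length. The submitters' processing notes name HISAT2 (2.0.5 and 2.0.0), StringTie 1.3.3b, featureCounts 1.5.0-p3 and DESeq2. The annotation release, the use of strand and the treatment of multi-mapped reads are not given in the sources used here. Tables of the authors' own fold changes and p-values were not used. The count table held 0 unused sample columns and 0 rows without a gene.

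The analysis used R 4.3.3 and edgeR 4.0.16 (quasi-likelihood test, TMM, 1 mean per group, all libraries, mean raw count of at least 10) and, as an alternative, DESeq2 1.42.0. Figures were drawn with matplotlib 3.10.9. The edgeR test was also run on counts simulated with changes in treated TIGK alone and no difference between the untreated lines. As the data differ from that setting, the run is not used as support here. Standard errors are the log2 fold change divided by the root of the F statistic. Replicate spread limits precision more than depth does. The members and lists were chosen with earlier results of these data known. Named were all members, the largest rise and fall past the limit in each list and response, and the 5 genes most like CLK1 and SRSF3. Of the genes overlapping member exons, EDC3 and MFSD11 were named. SRSF6 also shares 13.4% of its exon bases with a protein-coding gene on the same strand, for which no count was found. SRPK2, SREK1, CCNL2, U2AF1 and SRSF12 were named outside these rules. Overlaps and transcript types came from GENCODE 44, promoters from RefSeq (GRCh38.p14). Alternatives were other scalings, filters, limits and fits, a replicate block, and leaving out each library.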

Additional observations from a re-analysis of the deposited data

Results flagged for a closer look

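The responses of the lines to H2O2 differed for 3 genes among the members and the pathway lists by the test of the difference itself (TIGK minus HaCaT, edgeR, adjusted p under 0.01). These are 3 of 91 genes tested (3.3%), beside 5.3% of all 16618 genes tested. CLK1 had a difference of -0.5353 on the log2 scale (edgeR adjusted p = 0.00311). It lost the call in 6 of the 12 fits that left out 1 library (edgeR adjusted p from 0.0107 to 0.0308). SRPK2 had one of 0.39 (edgeR adjusted p = 0.00298), with a log2 fold change of 0.08 in TIGK and -0.30 in HaCaT, and lost the call without untreated HaCaT 2 (0.36, edgeR adjusted p = 0.0128). SREK1, an SR-related factor, had a difference of 0.41 (edgeR adjusted p = 0.00295), with 0.26 in TIGK and -0.15 in HaCaT, and lost the call without untreated HaCaT 1 (0.40, edgeR adjusted p = 0.0109) or untreated TIGK 1 (0.37, edgeR adjusted p = 0.0104).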

How the results depend on the processing

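Over 20 alternatives, 990 values of the members were recomputed, of which 908 kept their direction and side of the limit, 41 lost the call, 25 gained one and 16 changed sign. The falls of CLK1, CLK2 and CLK4 in TIGK and of CLK2 and CLK4 in HaCaT kept their calls in all 20. So did the differences between the untreated lines in SRSF2, SRSF3, SRSF5, SRSF7 and TRA2A. Between the treated lines, those of CLK1, SRSF3, SRSF5, SRSF6 and SRSF7 did as well. All sign changes were in values past no limit: in HaCaT, SRSF7 at -0.0159 without the mitochondrial chromosome and -0.0114 with the groups compared alone, and TRA2A at 0.0097 with library totals alone. When 1 library was left out, the HaCaT responses ranged from -0.102 to 0.0142 for CLK1, -0.0767 to 0.0203 for SRSF6, -0.0439 to 0.0556 for SRSF7 and -0.0451 to 0.0363 for TRA2A, the TIGK responses from -0.111 to 0.0049 for CLK3 and -0.0069 to 0.0638 for SRSF3, and CLK2 in HaCaT over TIGK after H2O2 from -0.0079 to 0.153.

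The number of members past the limit in the difference of responses was 1, and 2 with DESeq2, 2 without the filter, 3 at a limit of 0.05, and 0 to 2 without 1 library. In HaCaT it was 2, 3 without the filter, with library totals alone or without treated HaCaT 3 and 2 without any other library, and 4 at a limit of 0.05, which 4363 higher and 3441 lower genes passed of 16618. In TIGK it was 5, 6 without the filter, 5 at a limit of 0.05, which 2877 higher and 3121 lower genes passed, and 3 to 5 without 1 library (3 without untreated TIGK 2 or any treated TIGK library). Over all genes, the no-filter fit called 2571 higher in TIGK, against 1699, and in the difference DESeq2 called 685 higher and 718 lower, the no-filter fit 769 higher, and a limit of 0.05 gave 847 and 1172, against 385 and 496.

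Within each line, untreated and treated replicates with the same number did not deviate together (correlations -0.03 to 0.01). Those with different numbers had correlations of -0.02 to 0.03. Replicates of the 2 lines were not compared, and whether a number stands for a shared culture or batch was not tested. With the replicate block, 4 members passed in TIGK (TRA2A did not, edgeR adjusted p = 0.0144), 2 in HaCaT, 5 between the untreated lines (SRSF6 did not, edgeR adjusted p = 0.0144), 7 after H2O2 and 1 in the difference. SYNCRIP in HaCaT did not pass with it (edgeR adjusted p = 0.0165). The difference of responses has no value with the groups compared alone, since it needs all 4.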
